A study of Mus musculus with 20 samples.

Results

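Microglia sorted from the injured hemisphere were compared between mice given a lateral fluid percussion injury (FPI) and mice given sham surgery, 7 days after the procedure. The comparison took all libraries titled as microglia, 5 from FPI mice and 5 from sham mice, which are 10 of the 20 libraries of the series. It covered the 12143 genes that passed the filter on low counts, of 39017 in the count table and 20485 with at least 1 count in these libraries. All mice were male, 3 to 4 months old and of the C57BL/6 strain (C57BL/6J in the study's methods), with no transgene. FPI injures the brain through a craniectomy, by a rapid rise in fluid pressure over the cortex. Mice of both groups had a craniectomy over the left parietal cortex and a hub glued to the skull on the previous day, and both were anesthetized and connected to the device. In sham mice the device was not triggered. Mice entered the study only with a righting time above a minimum, so the injury was moderate to severe. Left forebrains were dissociated with papain, myelin was removed, and living CD11b-positive cells with intermediate CD45 were collected by FACS. Each library held cells of 1 animal, and p-values therefore measure the spread between animals. Total RNA was read with a kit for picogram amounts, and the values rest on whole-number counts of reads on each gene that the authors deposited.

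Microglia are the resident macrophages of the brain. In the undisturbed tissue they survey their surroundings through P2Y12-family purine receptors and depend on CSF1R and TGF-beta signals. After damage they can divide, take up debris and myelin lipid, and raise lysosomal and cholesterol export genes, while the genes that mark the surveying state often decrease. The interferon response, MHC class I presentation and the genes of disease-associated microglia (DAM) were set aside here as known parts of the response. They are used only to show what remains outside them. The question was which processes outside those lists differed between the groups at day 7. The processes include translation, energy and lipid metabolism, cell division, and the genes that fell. Ribosomal genes were already reported by the paper among those its microglia shared with a mild injury model.

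Counts on genes ran from 5623349 to 13110857 in the sham libraries and from 6890710 to 8396868 in the FPI libraries. The summed level of 9 microglia markers was 21983 to 28161 in sham and 17260 to 29249 in FPI libraries, in CPM, which are counts scaled to a common library total. Microglia markers were therefore abundant in every library. *Cd79a*, *Ms4a1* and *Pax5* of the B cell list, *Ly6g* of the neutrophil list and *Ly6c2* of the monocyte list had no count in any library. Other members of these lists had counts, so the zeros alone do not show that such cells were absent. The B cell list summed to 147 to 239.6 CPM in sham and 136 to 150.2 CPM in FPI libraries. The neutrophil list as a whole summed to 482 to 662 CPM in sham and 542 to 713 CPM in FPI libraries, nearly all of it from *Csf3r*, the receptor for the growth factor G-CSF (mean 569.6 CPM in sham and 636 CPM in FPI libraries). Markers of several other cells were not level between the groups. Monocyte markers summed to 21 to 54.5 CPM in sham and 32.2 to 185 CPM in FPI libraries, and of the 3 tested members *Fn1* was called higher. Most of that sum was *Fn1* itself, at a mean of 24.9 of 32.4 CPM in sham and 89.6 of 98.2 CPM in FPI libraries. Oligodendrocyte markers summed to 140.5 to 202 CPM in sham and 206 to 302 CPM in FPI libraries, without overlap, and 1 of 7 tested members was called. Border macrophage markers were at 307 to 502 CPM in sham libraries 1 to 3 and at 26.5 and 21 CPM in sham libraries 4 and 5. In the corresponding FPI libraries they were at 152 to 306 CPM and at 29.3 and 75.3 CPM. *Mrc1* made up much of the sum, at a mean of 152 of 268 CPM in sham and 91.6 of 155 CPM in FPI libraries. Of 9 tested members 7 had a log2 fold change below 0 (median -0.73). The only member called was *Folr2*, which was higher (mean 2.83 CPM in sham and 8.73 CPM in FPI libraries). A gene on the opposite strand covers 63.1% of its exonic bases. In a fit of libraries 1 to 3 alone, 4 of 10 tested members were called lower. Astrocyte markers summed to 951 to 1155 CPM in sham and 985 to 1238 CPM in FPI libraries, and 10 of 11 tested members had a log2 fold change above 0 (median 0.63, with *Gfap* called). Within the name series described next, that median was 1.15 in the M series, with 4 called in a fit of that series alone, and 0.11 in the J-A series. Oligodendrocyte precursor markers summed to 8.15 to 12.1 CPM in sham and 8.23 to 29.4 CPM in FPI libraries, with 3 of 4 tested members above 0 (median 0.61, *Cspg4* called). The library names fall into 2 series, one ending in M (replicates 1 to 3 of each group) and one with J-A (replicates 4 and 5). The labels do not say what the series mark, and each holds both conditions. Values within each series are therefore given beside many of the results. The part of these markers in the results below was not tested.

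edgeR's quasi-likelihood test called 259 genes higher after FPI and 26 lower, which are 2.13% and 0.214% of the genes tested. Together these are 2.35% of the genes tested. Calling a gene needed a Benjamini-Hochberg adjusted p under 0.1 and a log2 fold change (log2FC, FPI minus sham) beyond 0.6 in size. Of the 259 higher genes, 154 (59.5%) were in no interferon, MHC class I or DAM list, and none of the 26 lower genes was in one. The median log2FC over all tested genes was -0.0094, and 48.7% of genes had a value above 0. An unadjusted p below 0.05 was reached by 7.47% of genes upward and 3.87% downward. Counts and shares of the lists below are to be read beside these and the 2.13% called higher. The called-higher genes stood a median of 1.18, 1.26, 0.78, 0.89 and 1.22 log2 units above the sham mean in FPI libraries 1 to 5. FPI library 3 carried the smallest shift of the 5. In bulk RNA, fewer cells of a type and less RNA per cell cannot be told apart, and this holds for each result below.

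**Figure D1:**
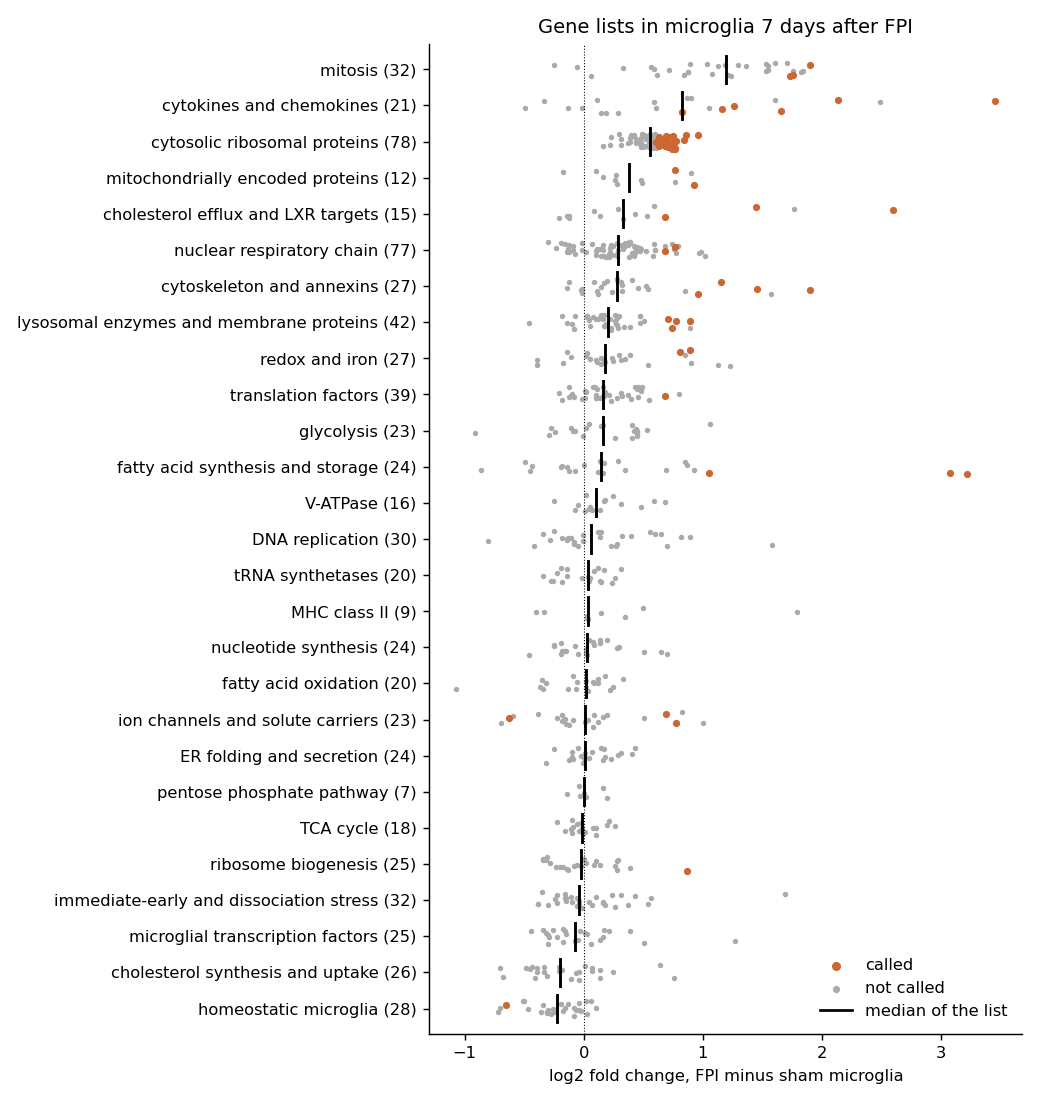
Log2FC, FPI minus sham, of every tested member of 27 gene lists (horizontal axis), with the number tested beside each name. Orange points are called genes, grey points are not, and the black bar is the list's median. Mitosis, cytokine and ribosomal protein genes have the medians farthest to the right, at 1.20, 0.83 and 0.56, and homeostatic microglia and cholesterol synthesis genes have medians left of 0, at -0.22 and -0.19.

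Of the 27 lists other than those set aside, the genes of the ribosome itself held the most calls. Of 78 tested genes for cytosolic ribosomal proteins, 23 rose (29.5%, against 2.13% of all genes) and none fell. All 78 had a log2FC above 0, and the highest was 0.96 for *Rpl37* of the large subunit. Their median was 0.56, 42 had an adjusted p below 0.1 before the minimum fold was applied (2.64% of all genes did in the upward direction), and 7 had all FPI libraries above all sham libraries (2.11% of all genes did). Summed over the 79 genes of the list, sham libraries 1 to 5 held 10948, 9949.6, 10114, 10797 and 12883 CPM. FPI libraries 1 to 5 held 13912, 18518, 11071, 17371 and 20349 CPM. FPI library 3 lay within the sham range and the other FPI libraries lay above it. The median was 0.46 within the M series and 0.64 within the J-A series.

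*Rpl10a* (chr17:28328471-28331033, GRCm38), a protein of the large subunit, had the smallest p of the list. Its level was 76.4, 71.2, 80.4, 91.4 and 82.4 CPM in sham libraries 1 to 5 and 135, 132, 115, 129 and 119 CPM in FPI libraries 1 to 5. Every FPI library was above every sham library (log2FC 0.65 ± 0.12 SE, edgeR adjusted p = 0.00338). *Rps2*, of the small subunit, rose from 69.2, 77.9, 72.3, 82.9 and 101 CPM to 125, 167, 100.3, 151 and 187 CPM (log2FC 0.86 ± 0.16, adjusted p = 0.00485), and FPI library 3 was just below sham library 5. *Rpl19* likewise overlapped between FPI library 3 (234 CPM) and sham library 5 (240.1 CPM), at a log2FC of 0.77 ± 0.14 (adjusted p = 0.00505). Ribosomal protein genes have many processed copies elsewhere in the genome, so reads could be shared between a gene and its copies, and their levels are uncertain for that reason. Of 52 tested pseudogenes named for ribosomal proteins, 8 were called higher, and 50 had a log2FC above 0 with a median of 0.70.

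**Figure D2:**
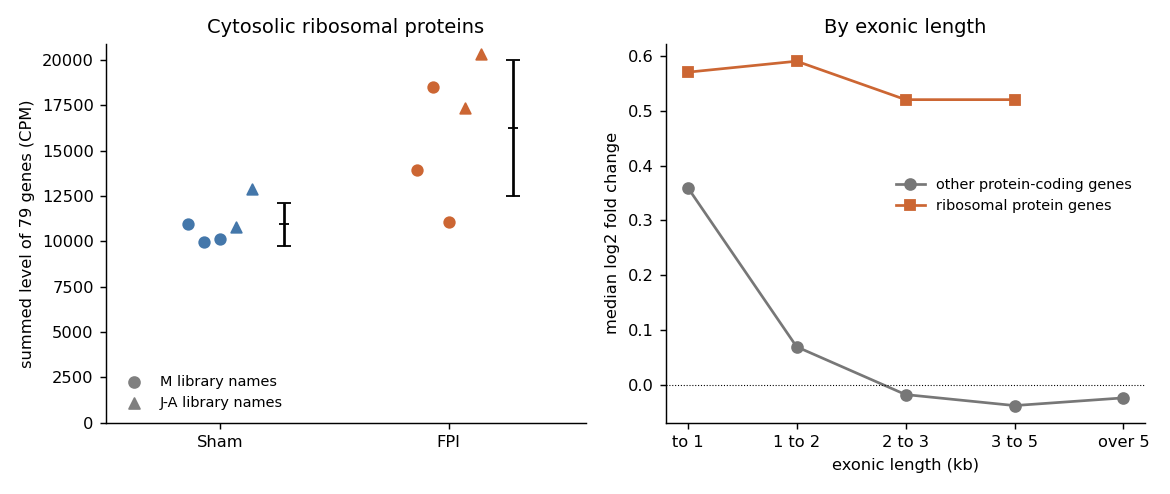
Left, summed CPM of 79 ribosomal protein genes in each library (circles for M, triangles for J-A names, bars for mean ± SD of 5 libraries). Right, median log2FC by class of exonic length, drawn for classes with more than 2 genes, where the ribosomal genes lie at 0.52 to 0.59 and other protein-coding genes pass from 0.36 in the shortest class to about 0 above 2 kb. FPI library 3 (11071 CPM) sits among the sham libraries.

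Exonic length moved with the comparison as well. It joins all annotated exons of a gene and can exceed the length of the transcripts that were read. Among other protein-coding genes with up to 1 kb of exonic sequence the median log2FC was 0.36 (195 genes, 6.15% called higher), and it was 0.070 from 1 to 2 kb, -0.017 from 2 to 3 kb, -0.037 from 3 to 5 kb and -0.023 above 5 kb. The ribosomal protein genes had medians of 0.57, 0.59, 0.52, 0.52 and 0.53 in the same 5 classes, above the other genes of each class. In the shortest class the gap was smaller than in the others. The shortest class held 11 ribosomal protein genes and the longest only 2. Genes were not matched by the length of their transcripts. Within the name series the medians of the other genes, from short to long, were 0.24, -0.041, -0.10, -0.092 and 0.010 in the M series and 0.42, 0.28, 0.10, 0.041 and -0.090 in the J-A series. Small nucleolar RNAs, which are short and are not translated, had a median of 0.26 over 51 genes, with 1 called higher.

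The rest of the translation machinery was not called as a group. Of 39 translation factors only *Pabpc1* rose, which is 2.56% of the list against 2.13% of all genes, and 31 had a log2FC above 0 (median 0.16). Without the minimum fold, 5 of the 39 had an adjusted p below 0.1 upward (2.64% of all genes did). In 5 all FPI libraries were above all sham libraries (2.11% of all genes), and 12 had an unadjusted p below 0.05 upward (7.47%). *Pabpc1*, the main cytoplasmic poly(A)-binding protein, was at 399, 387, 401, 346 and 431 CPM in sham and at 693, 691, 461, 535 and 769.7 CPM in FPI libraries. The groups did not overlap (log2FC 0.68 ± 0.14, edgeR adjusted p = 0.00884), although without FPI library 5 the log2FC was 0.59 and below the minimum fold. *Eef1g*, a subunit of the elongation factor that reloads tRNA carriers, ran from 76.9 to 90.2 CPM in sham and from 98.4 to 137 CPM in FPI libraries and did not pass the minimum fold (log2FC 0.48 ± 0.12).

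Of 25 genes that build ribosomes in the nucleolus, 1 was called higher (4.00%), and the median log2FC was -0.026. That gene was *Npm1* (chr11:33152287-33163206), nucleophosmin, a nucleolar chaperone. It was at 99.5, 86.7, 88.4, 85.3 and 101 CPM in sham and at 159, 199, 113, 159 and 211 CPM in FPI libraries. All FPI libraries were above all sham libraries (log2FC 0.87 ± 0.15, edgeR adjusted p = 0.00211), with 0.77 in the M and 1.00 in the J-A series. *Ncl*, its partner nucleolin, had a log2FC of 0.39 ± 0.15 (adjusted p = 0.267). None of 20 cytosolic tRNA synthetases was called by edgeR or DESeq2, and 2 had an unadjusted p below 0.05. None of 24 genes for folding and secretion in the endoplasmic reticulum was called by either tool, and none had an unadjusted p below 0.05. Their medians were 0.040 and 0.011.

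Genes of oxidative phosphorylation leaned upward with few calls. Of 77 nuclear genes of the respiratory chain, 2 rose (2.60%, close to the 2.13% of all genes), 64 had a log2FC above 0 and the median was 0.29. *Cox4i1*, a subunit of cytochrome c oxidase, was at 51.7, 56.8, 43.4, 66.2 and 71.3 CPM in sham and at 101, 107, 57.2, 105 and 123 CPM in FPI libraries (log2FC 0.77 ± 0.18, edgeR adjusted p = 0.0281). FPI library 3 lay within the sham range and the other 4 lay above it. Without sham library 3 its adjusted p was 0.106. *Cox7a2l*, which helps join respiratory complexes, had a log2FC of 0.68 ± 0.18 (adjusted p = 0.0629) and lost its call in 7 of the 10 fits that each leave out a library (adjusted p 0.110 to 0.195), those without sham libraries 1 to 4 or without FPI library 1, 4 or 5. The list's median was 0.10 in the M series and 0.45 in the J-A series, and the exonic lengths of the list had a median of 1756 bases, like the ribosomal list's 1776.

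Of 12 tested protein genes of the mitochondrial genome, 2 were called higher (16.7%), and the median log2FC was 0.38. All counts on mitochondrial genes, ribosomal RNA included, made up 4.24 to 5.46% of the sham libraries and 5.85 to 8.36% of the FPI libraries, without overlap. The ribosomal RNA *mt-Rnr2* alone averaged 34352 CPM in sham and 51560.2 CPM in FPI libraries. The protein genes summed to 3969.9 to 6120.3 CPM in sham and 4533 to 7939.5 CPM in FPI libraries, with overlap. *mt-Nd6*, the complex I subunit encoded on the opposite strand from the others, was at 83.8 to 127 CPM in sham and 131 to 274 CPM in FPI libraries (log2FC 0.77 ± 0.17, edgeR adjusted p = 0.0225), and its log2FC without FPI library 2 was 0.57. Reads of *mt-Nd6* and of the transcripts across from it can be told apart only if strand was used in counting, which is not stated in the sources used here. *mt-Nd3* (log2FC 0.93 ± 0.27, adjusted p = 0.0968) lost its call in 9 of 10 such fits, all but the one without FPI library 3 (adjusted p 0.102 to 0.252). Nuclear copies of mitochondrial genes can take some of these reads.

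No gene of central carbon metabolism was called. In glycolysis 0 of 23 genes were called by edgeR or DESeq2, with a median log2FC of 0.16. An unadjusted p below 0.05 was reached by 7, all upward (7.47% of all genes were). *Pkm*, pyruvate kinase, was at 167, 178, 197, 163 and 199 CPM in sham and at 253, 263, 228, 234 and 254 CPM in FPI libraries. The groups did not overlap, and the difference was below the minimum fold (log2FC 0.45 ± 0.11, adjusted p = 0.0394). *Gpi1*, the second enzyme of the pathway, had a log2FC of 0.44 ± 0.13 (adjusted p = 0.0981). The citric acid cycle (0 of 18 called, median -0.017), fatty acid oxidation (0 of 20, median 0.020), the pentose phosphate pathway (0 of 7, median 0.0062) and nucleotide synthesis (0 of 24, median 0.025) had no call by either tool, and 0, 1, 0 and 1 of their genes had an unadjusted p below 0.05. *Ehhadh*, a peroxisomal enzyme of fatty acid oxidation, had the largest difference among these lists, at 3.82 to 11.1 CPM in sham and 2.19 to 6.26 CPM in FPI libraries (log2FC -1.07 ± 0.45, adjusted p = 0.328).

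Genes of mitosis had the highest median of the 27 lists, 1.20, in a set of low-abundance transcripts. Of the 40 genes of the list 32 passed the filter. A transcript that is low in sham can pass it through the FPI libraries alone, which can lift the median. How far it did so was not tested. The summed level of all 40 genes averaged 458 CPM in sham and 627 CPM in FPI libraries. Of 32 tested members 3 rose (9.38%, against 2.13% of all genes), 17 had an unadjusted p below 0.05 in the upward direction (7.47% of all genes did) and 30 had a log2FC above 0. DESeq2 called 7 of them. Of the 3 genes called, *Top2a* encodes the topoisomerase that untangles replicated chromosomes, *Mki67* the Ki-67 protein that coats mitotic chromosomes, and *Cenpe* a kinesin of the kinetochore. Many genes of late cell cycle share 2 short promoter elements, the CCAAT box bound by NF-Y and the cell cycle genes homology region (CHR) bound by the DREAM and MuvB complexes. To show them, the 250 bases upstream of the RefSeq start of each gene are printed 5′ to 3′ on the gene's strand, with each CCAAT box on either strand (CCAAT or ATTGG) and each CHR on either strand (TTTGAA or TTCAAA) in capitals. The windows lie at chr11:99024190-99024439 (minus strand), chr7:135716380-135716629 (minus) and chr3:135212313-135212562 (plus) of GRCm38.p6.
Top2a: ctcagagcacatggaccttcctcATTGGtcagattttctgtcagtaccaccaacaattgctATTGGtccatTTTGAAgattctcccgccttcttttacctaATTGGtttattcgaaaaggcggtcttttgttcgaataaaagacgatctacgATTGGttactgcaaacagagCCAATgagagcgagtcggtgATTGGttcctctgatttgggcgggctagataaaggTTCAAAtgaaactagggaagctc
Mki67: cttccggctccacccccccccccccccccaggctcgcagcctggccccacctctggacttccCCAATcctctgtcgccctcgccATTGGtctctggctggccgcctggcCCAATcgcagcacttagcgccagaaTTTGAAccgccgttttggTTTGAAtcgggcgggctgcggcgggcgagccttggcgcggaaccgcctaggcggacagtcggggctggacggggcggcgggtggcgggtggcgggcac
Cenpe: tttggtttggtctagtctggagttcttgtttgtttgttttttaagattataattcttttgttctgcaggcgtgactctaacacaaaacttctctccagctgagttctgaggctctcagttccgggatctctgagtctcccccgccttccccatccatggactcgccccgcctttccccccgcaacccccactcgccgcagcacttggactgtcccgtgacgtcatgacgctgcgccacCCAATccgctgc

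The *Top2a* window held 6 CCAAT boxes and 2 CHR matches, the *Mki67* window 3 and 2, and the *Cenpe* window 1 and none. RefSeq windows, from 250 bases before to 50 after a start, were at hand for 25 of the 32 tested mitosis genes (27 windows). A CHR match was in 22 of the 27 (81.5%), against 17.9% of all 32851 windows, and a CCAAT box was in 20 (74.1%), against 37.4%. More than 1 CHR match was in 37.0% of the mitosis windows and 2.31% of all windows. In the 67 windows of 57 ribosomal protein genes these shares were 5.97% for the CHR and 29.9% for the CCAAT box. These are matches of letters and describe the lists, whatever the genes did after FPI.

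*Top2a* was at 2.98, 7.93, 6.97, 9.72 and 4.28 CPM in sham and at 14.5, 32.1, 11.5, 13.1 and 49.3 CPM in FPI libraries. Every FPI library was above every sham library, and FPI libraries 2 and 5 were far above the rest (log2FC 1.90 ± 0.40, edgeR adjusted p = 0.0124). *Mki67* was at 9.05, 9.41, 20.8, 12.7 and 4.08 CPM in sham and at 40.7, 77.2, 21.7, 6.42 and 41.4 CPM in FPI libraries (log2FC 1.73 ± 0.45, adjusted p = 0.057). FPI library 4 was within the sham range and FPI library 3 just above it. *Cenpe* was at 0.894 to 5.64 CPM in sham and 3.60 to 16.8 CPM in FPI libraries, again with FPI library 4 inside the sham range (log2FC 1.76 ± 0.47, adjusted p = 0.0643). Leaving out sham library 1, 2, 4 or 5 or FPI library 1 or 2 ended the call of *Mki67* (log2FC 1.28 to 1.77, adjusted p 0.102 to 0.272). Leaving out sham library 1, 2, 3 or 4 or FPI library 1, 2 or 5 ended that of *Cenpe* (log2FC 1.51 to 1.85, adjusted p 0.109 to 0.245). *Top2a* kept its call in all 10 such fits.

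**Figure D3:**
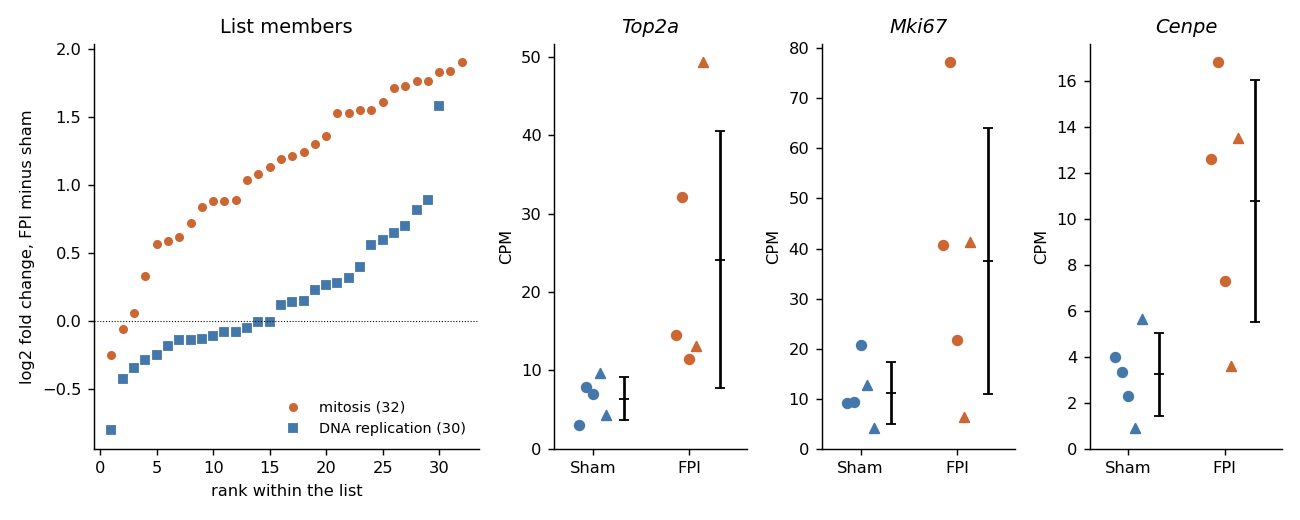
Left, log2FC of every tested member of the mitosis and DNA replication lists, ordered by rank within the list. Right, CPM of the 3 called mitosis genes in each library (circles for M, triangles for J-A names, bars for mean ± SD of 5 libraries). Mitosis genes centre on 1.20 with 30 of 32 above 0, and DNA replication genes centre on 0.059 with 15 of 30 above 0.

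Summed over the mitosis list, sham libraries 1 to 5 held 492, 438, 435, 428 and 497 CPM and FPI libraries 1 to 5 held 549, 763, 463, 507 and 855 CPM. FPI library 3 lay within the sham range, and FPI libraries 2 and 5 were the highest. The median log2FC was 1.02 in the M series, 1.11 in the J-A series and 0.86 without FPI library 5. The 30 tested genes of DNA replication, which act in S phase, did not share this lean. None was called by edgeR or DESeq2, 2 had an unadjusted p below 0.05, and 15 were above 0 and 15 below, with a median of 0.059. *Mcm7*, part of the replicative helicase, was at 10.9 to 17.5 CPM in sham and 14.2 to 33.0 CPM in FPI libraries (log2FC 0.60 ± 0.25, adjusted p = 0.314). *E2f1*, a transcription factor of S-phase entry, was at 0 to 2.20 and 1.65 to 6.84 CPM (log2FC 1.58 ± 0.71, adjusted p = 0.386). The difference between the lists was not tested.

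Lipid genes were read by step. Genes that move cholesterol out of the cell or answer to the sterol sensor LXR had 3 of 15 called higher (2.13% of all genes were) and a median log2FC of 0.33. Of the 15 genes 4 are also in a list set aside, *Apoe* and *Nceh1* among them. *Apoe*, the apolipoprotein that carries exported lipid and a DAM gene, was at 1906, 1252, 2205, 492 and 481 CPM in sham and at 14584, 11693, 5025, 2259 and 4988 CPM in FPI libraries. All FPI libraries were above all sham libraries, and within each group the J-A libraries were below the M libraries (log2FC 2.60 ± 0.45, edgeR adjusted p = 0.00278, with 2.53 in the M and 2.90 in the J-A series). *Nceh1*, a hydrolase that frees cholesterol from its stored esters, was at 18.1, 10.8, 10.7, 9.50 and 15.7 CPM in sham and at 51.0, 32.3, 24.5, 31.0 and 37.4 CPM in FPI libraries. The groups did not overlap (log2FC 1.45 ± 0.24, adjusted p = 0.00138). *Abcg1*, a transporter that loads cholesterol onto lipoproteins, ran from 193 to 231 CPM in sham and from 226 to 416 CPM in FPI libraries (log2FC 0.68 ± 0.14, adjusted p = 0.0111), with FPI library 3 inside the sham range. Without FPI library 5 its log2FC was 0.58.

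Cholesterol synthesis and uptake leaned the other way without a call. None of 26 genes passed the test by edgeR or DESeq2, 1 had an unadjusted p below 0.05, and 18 of 26 had a log2FC below 0, with a median of -0.19. *Scap*, the escort of the factors that switch on sterol synthesis, was at 54.0 to 78.3 CPM in sham and 42.0 to 59.4 CPM in FPI libraries (log2FC -0.41 ± 0.14, edgeR adjusted p = 0.202). The median was -0.022 in the J-A series alone.

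Among 24 genes of fatty acid synthesis, uptake and storage 3 rose (12.5%), with a median of 0.14. *Lpl* (chr8:68880491-68907448), lipoprotein lipase, which releases fatty acids from lipoproteins and is a DAM gene, was at 9.70, 14.6, 20.2, 12.7 and 8.75 CPM in sham and at 248, 176, 85.6, 51.0 and 60.3 CPM in FPI libraries. The lowest FPI library was above the highest sham library by more than any difference among the sham libraries (log2FC 3.22 ± 0.37, edgeR adjusted p = 5.64e-05). Its log2FC was 3.50 in the M and 2.36 in the J-A series. *Fabp5*, a fatty acid carrier and DAM gene, was at 0.495 to 2.98 CPM in sham and 6.83 to 31.8 CPM in FPI libraries (log2FC 3.08 ± 0.48, adjusted p = 9.08e-04). *Plin2*, which coats lipid droplets, was at 7.78 to 23.9 CPM in sham and 22.1 to 43.4 CPM in FPI libraries, with FPI library 4 inside the sham range (log2FC 1.05 ± 0.28, adjusted p = 0.0596). The call of *Plin2* was lost without sham library 1, 2 or 5 or FPI library 1 or 2 (adjusted p 0.129 to 0.219).

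Lysosomal genes were higher in a part of the list. Of 42 enzymes and membrane proteins 4 rose (9.52%), 36 had a log2FC above 0, and the median was 0.21. The cathepsin *Ctsb* was at 1606, 1269, 1679, 1463 and 1679 CPM in sham and at 3031, 3237, 1961, 2584 and 3434 CPM in FPI libraries. There was no overlap, and FPI library 3 was again nearest to the sham libraries (log2FC 0.89 ± 0.15, edgeR adjusted p = 0.00162). *Cd63*, a membrane protein of lysosomes and exosomes (log2FC 0.74 ± 0.15, adjusted p = 0.00826), and *Grn*, which encodes progranulin (0.78 ± 0.16, adjusted p = 0.00932), were called in all fits that leave out a library. The cathepsin *Ctsl* (0.71 ± 0.16, adjusted p = 0.0247) lost its call without sham library 2 (adjusted p = 0.101) or FPI library 5 (log2FC 0.58). Other annotated genes cover 26.8% of the exonic bases of *Ctsl*, so some of its reads may belong to them. Of the 42 genes 9 are also in a list set aside, *Ctsb* among them. The proton pump that acidifies the lysosome had 0 of 16 subunits called by edgeR, 1 by DESeq2 and 3 with an unadjusted p below 0.05. *Atp6v1b2* of the pump was at 49.2 to 79.8 CPM in sham and 81.9 to 107 CPM in FPI libraries, without overlap, and just under the minimum fold (log2FC 0.59 ± 0.15, adjusted p = 0.0411).

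Both subunits of the iron store ferritin rose. *Fth1*, the heavy chain, was at 485, 444, 490.2, 411 and 508 CPM in sham and at 976, 913, 600, 775 and 1077 CPM in FPI libraries (log2FC 0.89 ± 0.14, edgeR adjusted p = 0.00118). *Ftl1*, the light chain, was at 220 to 309 CPM in sham and 346 to 552 CPM in FPI libraries (log2FC 0.81 ± 0.15, adjusted p = 0.00421). Neither overlapped between groups. Other annotated genes cover 34.6% of the exonic bases of *Ftl1*, so some of its reads may belong to them. These were the only 2 called of 27 tested genes for redox balance and iron (7.41%), where the median was 0.18. Of the 27 genes 2 are also in a list set aside, *Fth1* among them. Immediate-early and stress genes, which enzymatic dissociation can induce, had 0 of 32 called by either tool, 1 with an unadjusted p below 0.05 and a median of -0.039. Their summed level differed between the name series in both groups. It was 6489 to 7627 CPM in sham and 6360 to 7412 CPM in FPI libraries of the M series. In the J-A series it was 4901 to 4929 CPM in sham and 3582 to 4544 CPM in FPI libraries.

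Of 21 cytokine and chemokine genes 6 rose (28.6%), and the median was 0.83, but 9 of the 21 are also in an interferon or DAM list. *Cxcl16*, a membrane-bound chemokine, was at 48.2, 51.5, 61.5, 57.9 and 60.1 CPM in sham and at 108, 111, 109.9, 79.5 and 88.1 CPM in FPI libraries. The groups did not overlap (log2FC 0.83 ± 0.14, edgeR adjusted p = 0.00138). *Spp1*, osteopontin, was at 4.01, 4.53, 4.00, 4.69 and 31.3 CPM in sham and at 210.2, 154, 19.8, 22.5 and 85.0 CPM in FPI libraries (log2FC 3.46 ± 0.65, adjusted p = 0.00546). Sham library 5 was above FPI libraries 3 and 4, and the log2FC was 4.91 in the M and 1.64 in the J-A series.

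*Csf1*, a growth factor for microglia, was at 38.8, 32.2, 45.3, 52.8 and 64.0 CPM in sham and at 128, 123, 186, 67.1 and 52.4 CPM in FPI libraries (log2FC 1.26 ± 0.27, adjusted p = 0.0124). The 3 FPI libraries of the M series stood far above all others, and the J-A libraries of both groups overlapped. Its log2FC was 1.90 in the M series and 0.043 in the J-A series, a difference of 1.88 that passed the test (adjusted p = 0.0399 for the interaction of FPI and name series in edgeR). The astrocyte gene *Gfap*, at 1.03 to 13.2 CPM in sham and 14.6 to 99.1 CPM in FPI libraries, was the only other gene of 12143 to pass it (4.40 in the M and 0.49 in the J-A series, adjusted p = 0.0399). MHC class II genes had 0 of 9 called by either tool and none with an unadjusted p below 0.05.

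Genes of the cytoskeleton and the annexins had 4 of 27 called higher (14.8%) and a median of 0.28. *Anxa5*, a protein that binds phosphatidylserine, was at 15.7 to 23.1 CPM in sham and 25.7 to 54.6 CPM in FPI libraries (log2FC 1.15 ± 0.21, edgeR adjusted p = 0.00398). *Vim*, the intermediate filament vimentin, was at 10.6 to 13.3 CPM in sham and at 30.1, 65.7, 20.5, 13.9 and 36.8 CPM in FPI libraries (log2FC 1.46 ± 0.31, adjusted p = 0.0126). Neither overlapped, although FPI library 4 came close to the sham range for *Vim*. *Lgals1* and *Anxa4*, the other two called, lost their calls in 6 and 7 of the fits without a library (adjusted p 0.108 to 0.186 and 0.121 to 0.163). For *Lgals1* these were the fits without sham library 1, 2, 4 or 5 or FPI library 1 or 2 (log2FC 1.64 to 2.02), and for *Anxa4* those without sham library 1, 3, 4 or 5 or FPI library 1, 2 or 5 (0.85 to 0.94).

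Among 23 ion channels and solute carriers 2 rose (8.70%) and 1 fell. *P2rx4*, an ATP-gated channel, was at 42.3, 34.3, 40.9, 40.5 and 43.0 CPM in sham and at 77.5, 78.5, 53.9, 68.2 and 46.2 CPM in FPI libraries, without overlap (log2FC 0.69 ± 0.16, edgeR adjusted p = 0.0272). Its adjusted p was 0.111 to 0.122 without sham library 2 or FPI library 2. *Kcnj2*, the potassium channel Kir2.1, had a log2FC of 0.78 ± 0.19 (adjusted p = 0.0419), and its call was lost without sham library 2, 3 or 5 or FPI library 1 or 2 (log2FC 0.58 to 0.76, adjusted p 0.103 to 0.149). *Slc2a5*, a fructose transporter that marks resting microglia, fell. It was at 309, 344, 302, 257 and 335 CPM in sham and at 152, 169.5, 143, 255 and 279.5 CPM in FPI libraries (log2FC -0.63 ± 0.17, adjusted p = 0.0651). The 3 FPI libraries of the M series were far below all sham libraries, FPI library 4 was just below the lowest sham library, and FPI library 5 was inside the sham range (log2FC -1.05 in the M and -0.14 in the J-A series). The call of *Slc2a5* was lost without sham library 1, 2, 3 or 5 or FPI library 1, 2 or 3 (log2FC -0.64 to -0.53, adjusted p 0.0914 to 0.219).

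Of the 154 higher genes outside the interferon, MHC class I and DAM lists, the 12 with the smallest p are given next (*Npm1* and *Cxcl16* above). None overlapped between groups, but genes picked for a small p in these libraries mostly do not, so this is no separate result. All FPI libraries lay above all sham libraries in 158 of the 259 higher genes and in 2.11% of all tested genes. Several act outside the cell. *Fgl2*, which encodes a secreted fibrinogen-like protein with prothrombinase activity, was at 20.7, 18.8, 21.7, 22.7 and 16.3 CPM in sham and at 65.2, 74.4, 35.8, 49.1 and 94.5 CPM in FPI libraries (log2FC 1.67 ± 0.22, edgeR adjusted p = 1.54e-04). Complement *C3* was at 0.782 to 10.3 CPM in sham and 23.6 to 117 CPM in FPI libraries (log2FC 3.55 ± 0.50, adjusted p = 3.33e-04). Complement *C4b* was at 22.3 to 66.8 CPM and 81.6 to 247 CPM (log2FC 2.01 ± 0.30, adjusted p = 7.20e-04), and its near-identical neighbour *C4a* makes its level uncertain. *Cd5l*, a secreted scavenger protein of macrophages, was at 0 to 0.849 CPM in sham, where libraries 1 and 3 had no count, and at 4.54 to 18.9 CPM in FPI libraries (log2FC 4.80 ± 0.70, adjusted p = 5.40e-04).

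The next pair are receptors of lymphocytes and macrophages. *Cd72*, an inhibitory receptor, was at 4.66 to 14.4 CPM in sham and 22.6 to 45.6 CPM in FPI libraries (log2FC 1.94 ± 0.29, edgeR adjusted p = 5.98e-04), though *Tesk1* on the opposite strand covers 41.6% of its exonic bases. *Ly9*, a receptor of the SLAM family, was at 19.2 to 32.7 CPM and 44.1 to 72.9 CPM (log2FC 1.23 ± 0.19, adjusted p = 7.71e-04). The summed level of B cell markers was 147 to 239.6 CPM in sham and 136 to 150.2 CPM in FPI libraries. The others given are enzymes. *Xdh*, the xanthine dehydrogenase of purine breakdown, was at 2.14 to 5.60 CPM in sham and 11.5 to 23.1 CPM in FPI libraries (log2FC 2.11 ± 0.31, adjusted p = 4.65e-04). *Cpd*, a carboxypeptidase of the trans-Golgi (log2FC 1.18 ± 0.16, adjusted p = 3.05e-04), and *Chst2*, a sulfotransferase (1.77 ± 0.30, adjusted p = 0.00211), were also among the 12. The log2FC of *Chst2* was 2.68 in the M and 0.77 in the J-A series.

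The 26 genes that fell were fewer than those that rose and were expressed at higher levels. Their median sham level was 53.7 CPM, against 23 CPM for the 259 higher genes and 19.7 CPM for all tested genes. Only 6 of them had an absolute log2FC above 1, against 132 of the higher genes. In 19 of the 26 all FPI libraries lay below all sham libraries (1.11% of all tested genes did). The 26 were picked by p and fold in these same libraries, so such separation partly follows from the choice. The median log2 difference of the 26 genes from the sham mean was -1.03, -1.04, -0.83, -0.59 and -0.57 in FPI libraries 1 to 5, so the J-A libraries were shifted least.

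*Cass4* (chr2:172393794-172433757) had the smallest p. It encodes a docking protein of focal adhesions. Its level was 65.3, 53.1, 56.5, 43.6 and 66.3 CPM in sham and 25.4, 24.7, 22.6, 35.8 and 21.9 CPM in FPI libraries. Every FPI library was below every sham library (log2FC -1.13 ± 0.17, edgeR adjusted p = 9.08e-04), with -1.28 in the M and -0.92 in the J-A series. *Tgm2* (chr2:158116402-158146436), a protein-crosslinking transglutaminase, fell from 117, 106, 104, 71.2 and 93.5 CPM to 47.6, 53.5, 65.8, 51.3 and 56.7 CPM. There was no overlap (log2FC -0.84 ± 0.15, adjusted p = 0.00264). Genes on the opposite strand cover 21.2% of the exonic bases of *Cass4* and 21.8% of those of *Tgm2*. *Fmo1* (chr1:162829561-162866610), a flavin-containing monooxygenase, was at 3.88, 1.42, 3.20, 1.56 and 1.56 CPM in sham libraries and had no count in any FPI library. Against a floor of 3 counts over the FPI group it was at least 29.9-fold lower (edgeR adjusted p = 0.00484).

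**Figure D4:**
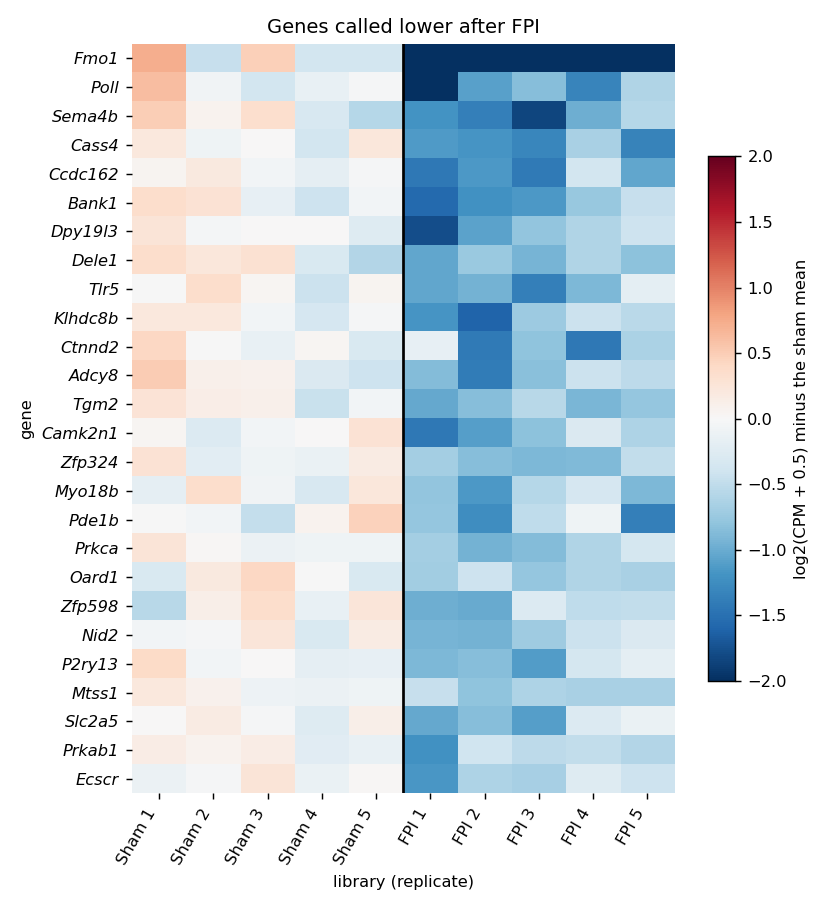
The 26 genes called lower (rows) in the 10 microglia libraries (columns), coloured by log2(CPM + 0.5) minus the sham mean of the gene, blue for lower and red for higher, with the scale ending at 2 on either side. The FPI columns are blue throughout most rows, and FPI libraries 4 and 5, at medians of -0.59 and -0.57, are paler than FPI libraries 1 to 3.

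Signalling molecules were among the other genes that fell. *Mtss1*, an adaptor that bends membranes at protrusions, was at 94.4 to 118 CPM in sham and 58.3 to 74.0 CPM in FPI libraries (log2FC -0.64 ± 0.12, edgeR adjusted p = 0.00585), and its log2FC was -0.59 without sham library 1. *Prkca*, protein kinase C alpha, was at 96.5 to 126 CPM and 54.0 to 82.1 CPM (log2FC -0.69 ± 0.14, adjusted p = 0.00846). *Bank1*, a scaffold known from B cell signalling, was at 59.1 to 99.9 CPM and 26.5 to 56.6 CPM (log2FC -1.02 ± 0.19, adjusted p = 0.00607). None of these 3 overlapped between groups. For *Bank1* the log2FC was -1.49 in the M and -0.38 in the J-A series. *Sema4b*, a transmembrane semaphorin, was at 92.4, 69.4, 82.9, 52.9 and 44.1 CPM in sham and at 28.5, 25.1, 18.0, 33.3 and 44.4 CPM in FPI libraries (log2FC -1.20 ± 0.23, adjusted p = 0.00588). Sham library 5 and FPI library 5 were level, and the log2FC was -1.78 in the M and -0.32 in the J-A series. *Camk2n1*, an inhibitor of CaM kinase II, was at 39.3 to 58.5 CPM and 17.5 to 39.1 CPM (log2FC -0.82 ± 0.20, adjusted p = 0.0349, and 0.129 without FPI library 2).

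The remaining named genes do not share one role. *Myo18b*, an unconventional myosin, was at 266 to 423 CPM in sham and 149 to 262 CPM in FPI libraries (log2FC -0.75 ± 0.16, edgeR adjusted p = 0.0126). *Dele1*, which relays mitochondrial stress to the cytosol, was at 25.5 to 49.4 CPM and 18.5 to 25.2 CPM (log2FC -0.88 ± 0.20, adjusted p = 0.0205). *Zfp324*, a zinc finger protein, was at 24.5 to 34.9 CPM and 15.1 to 20.2 CPM (log2FC -0.78 ± 0.19, adjusted p = 0.0351), and its adjusted p was 0.103 to 0.117 without sham library 1 or FPI library 2. *Ccdc162* was at 14.8 to 19.4 CPM and 5.95 to 13 CPM (log2FC -1.08 ± 0.26, adjusted p = 0.0378, and 0.104 to 0.138 without sham library 2 or FPI library 2). None of these overlapped between groups. The log2FC in the M and J-A series was -1.23 and -0.27 for *Dele1* and -1.48 and -0.58 for *Ccdc162*. Besides *P2ry13* and *Slc2a5*, the other 12 genes that fell had log2FC values from -1.23 for *Poll*, a DNA repair polymerase, to -0.60 for *Ecscr*. They included *Adcy8* and *Pde1b*, which make and break cyclic nucleotides, *Prkab1*, a subunit of the energy sensor AMPK, and *Tlr5*, the receptor for flagellin. For *Adcy8* the log2FC was -1.32 in the M and -0.12 in the J-A series, and for *Pde1b* it was -0.67 and -0.87.

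The genes that define the surveying state had a median log2FC below 0 in the M name series and above 0 in the J-A series. Of all 28 homeostatic genes 1 fell (*P2ry13*), 24 had a log2FC below 0, 11 had an unadjusted p below 0.05 in the downward direction (3.87% of all genes did) and the median was -0.22. *P2ry13*, a purine receptor next to *P2ry12* on chromosome 3, was at 899, 664, 694, 605 and 611 CPM in sham and at 369, 379.9, 316, 539 and 603 CPM in FPI libraries. The groups did not overlap, but FPI library 5 lay next to sham libraries 4 and 5 (log2FC -0.65 ± 0.17, edgeR adjusted p = 0.0493). Its log2FC was -1.10 in the M and -0.085 in the J-A series, and its call was lost without sham library 1, 2 or 3 or FPI library 1, 2 or 3 (log2FC -0.67 to -0.55, adjusted p 0.0649 to 0.173).

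*P2ry12* itself, the receptor that draws processes toward ATP, was at 2218, 1838, 1984, 1500.2 and 1516 CPM in sham and at 1104, 1089, 802, 1462 and 1952 CPM in FPI libraries. It was not called (log2FC -0.50 ± 0.19, edgeR adjusted p = 0.248), with -1.02 in the M and 0.18 in the J-A series. *Tmem119*, a microglia-specific membrane protein, had -0.82 and -0.056, and *Cx3cr1*, the fractalkine receptor, -0.71 and 0.13. Over the list the median was -0.41 in the M series, where 9 of 28 genes were called lower in a fit of that series alone, and 0.14 in the J-A series. In 26 of the 28 genes the log2FC was lower in the M than in the J-A series, and 18 (64.3%) had an unadjusted p below 0.05 for the difference between series, against 1279 of all 12143 genes (10.5%). None passed after adjustment (smallest adjusted p = 0.132). The same order held for the genes that fell. They were picked for a fall in these libraries, which are mostly of the M series. A fall in both series, and a larger one in the M series, is therefore partly built in. All 26 had a log2FC below 0 in both series, with a median of -1.04 in the M and -0.44 in the J-A series, and in 24 the fall was larger in the M series. The border macrophage markers in sham mice, the astrocyte marker medians and the summed immediate-early and stress genes also differed between the series, as given above. Their part in this pattern was not tested.

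**Figure D5:**
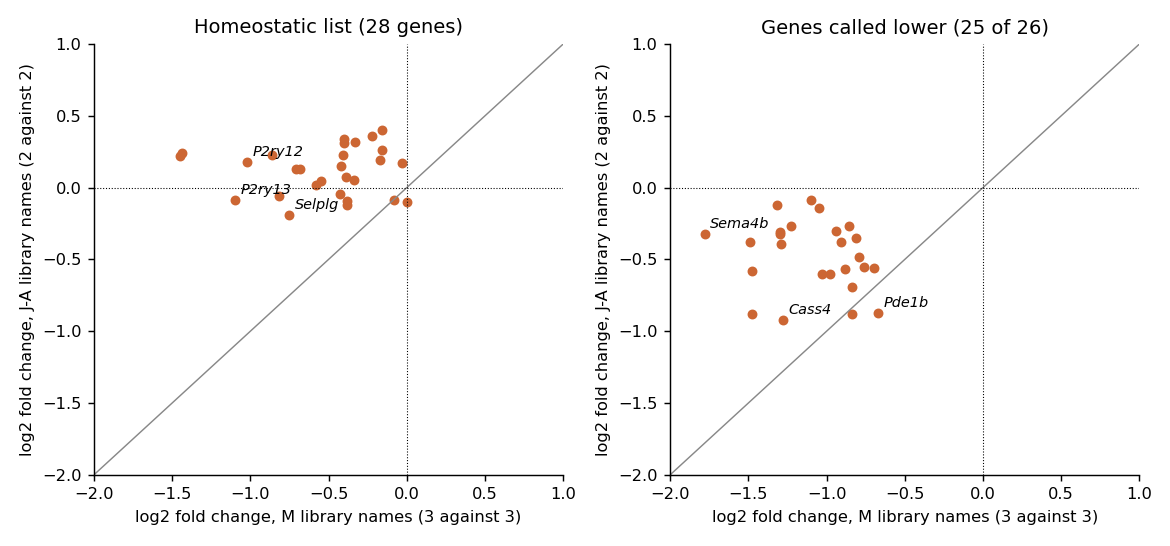
Log2FC within the J-A series (vertical axis, 2 against 2) against log2FC within the M series (horizontal axis, 3 against 3) for the 28 homeostatic genes (left) and for 25 of the 26 genes called lower (right, without *Fmo1*, which had no count after FPI), with the diagonal drawn. Homeostatic genes lie at or left of 0 on the M axis, at a median of -0.41, and around 0.14 on the J-A axis, and the genes called lower lie below 0 on both axes, mostly above the diagonal.

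Transcription factors of microglial identity had 0 of 25 genes called by edgeR and 1 by DESeq2, 8 with an unadjusted p below 0.05 and a median of -0.071. *Hif1a*, the hypoxia-inducible factor, was at 129 to 173 CPM in sham and 168 to 284 CPM in FPI libraries (log2FC 0.51 ± 0.14, adjusted p = 0.0728). *Smad3*, which carries TGF-beta signals, was at 172 to 211 CPM and 124 to 168 CPM without overlap (log2FC -0.44 ± 0.12, adjusted p = 0.0775). Both were below the minimum fold.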

How the data were processed

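Total RNA of sorted microglia was measured in 5 FPI and 5 sham libraries, grouped by their titles. The deposited values are whole-number read counts over 39017 Ensembl gene identifiers, with no normalization. Per the submitters' processing notes, the authors demultiplexed with bcl2fastq, aligned to mm10 (GRCm38.p6) with HISAT2 2.1.0 and counted with featureCounts, and the strand setting is not given in the sources used here. The authors' own tests rested on salmon, tximport and DESeq2, whose results were not used. Ribosomal RNA loci took 11.3 to 22.5% of the counts in sham and 10.8 to 20.9% in FPI libraries. Symbols and positions came from GENCODE M21 on GRCm38, promoters from RefSeq on GRCm38.p6.

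The 10 libraries were fitted with edgeR 4.0.16 in R 4.3.3 (filterByExpr, TMM factors, quasi-likelihood test) without covariates, and adjusted by the Benjamini-Hochberg method over all 12143 genes. CPM are counts on the TMM-scaled total of the tested genes. Genes varied between libraries of a group with a common biological coefficient of 0.324. Replicates differed from each other by more than sampling noise (chi-square per gene 13.21 to 67.84). Tested on simulated counts of this comparison (12022 genes), the fit recovered 62% of genes changed by 1 and 83% of genes changed by 2 on the log2 scale, 100 genes of each size, with 12 false calls.

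Gene lists and members were chosen with earlier results of these data known. The text names, of each list outside the set-aside and marker lists, up to 4 called members of smallest p, or 2 in all where fewer were called, and the 12 lower and 12 higher called genes of smallest p outside the set-aside lists. Other genes that are given were chosen after their values were seen. Some genes that this rule names are not reported here. Alternatives were DESeq2 1.42.0, RLE factors, 2 other filters, robust empirical Bayes, other thresholds, a replicate block, a term for the name series, each name series alone, all 20 libraries in 1 fit, and leaving out each library. The interaction of FPI and name series was added after seeing the data. Tables and figures were made with matplotlib 3.10.9, pandas 2.3.3, numpy 2.4.6 and scipy 1.17.1 under Python 3.11.15.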

Additional observations from a re-analysis of the deposited data

Results flagged for a closer look

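In 5 of 256 groups of 5 libraries (1.95%) 1 library stood apart from the other 4 by Dixon's test, where chance gives about 1 in 20. *Spp1* was at 31.3 CPM in sham library 5, and the next highest sham library was at 4.69 CPM. *Hsp90aa1*, a heat shock protein, was at 321 CPM in FPI library 2, against 245 CPM in the next highest FPI library. *Cass4* was at 35.8 CPM in FPI library 4, against 25.4 CPM, and *Ccdc162* was at 13 CPM in the same library, against 7.96 CPM. Neuron markers summed to 19.1 CPM in sham library 1, against 10.4 CPM in the next highest sham library.

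The difference of the FPI effect between the M and the J-A name series passed edgeR's test for 2 genes. It was 1.88 on the log2 scale for *Csf1* (1.90 in the M and 0.043 in the J-A series, adjusted p = 0.0399), and 3.93 for *Gfap* (4.40 and 0.49, adjusted p = 0.0399). In both genes the 3 FPI libraries of the M series were above all sham libraries of that series.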

How the results depend on the processing

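The 259 genes called higher became 99 when all 20 libraries were fitted together (81 of them shared), 97 in the J-A series alone (76 shared) and 132 with a log2FC beyond 1 in size. They ran from 164 (without FPI library 2) to 372 (without FPI library 3) when 1 library was left out, and were 166 without sham library 2. The 26 genes called lower became 55 with DESeq2, 43 with every gene of at least 1 count, 98 in the M series alone (20 shared), 2 in the J-A series alone (none shared), 16 with the adjusted p held under 0.05, 6 with a log2FC beyond 1 in size and 49 with no minimum fold. All 20 libraries gave 22, of which 3 were shared. Leaving out 1 library gave 11 (without sham library 2) to 51 (without FPI library 3), with 13 without sham library 1, sham library 3 or FPI library 2 and 44 without FPI library 5. With the replicate block 232 genes were called higher and 23 lower (21 shared). The numbers did not pair the libraries, since same-numbered libraries correlated at -0.066 to 0.0924 in their deviations from the group means, and not every library correlated best with its own number. DESeq2 called 364 genes higher.

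Of 540 list medians under an alternative, 518 moved by less than the spread between libraries. In the J-A series alone the median was 0.40 for translation factors, 0.17 for ribosome biogenesis, 0.20 for tRNA synthetases, 0.30 for the endoplasmic reticulum, 0.19 for the citric acid cycle, 0.36 for DNA replication, -0.022 for cholesterol synthesis, 0.46 for cytokines and 0.49 for the cytoskeleton, and that of the homeostatic genes turned to 0.14. In the M series alone it was -0.13 for tRNA synthetases, -0.18 for the citric acid cycle, -0.089 for fatty acid oxidation, -0.16 for DNA replication, -0.12 for transcription factors and -0.20 for channels. Leaving out 1 library gave -0.073 to 0.12 for DNA replication, 0.051 to 0.18 for fatty acid synthesis, -0.13 to -0.040 for transcription factors, -0.078 to 0.012 for channels and 0.52 to 0.93 for cytokines. The causes were not tested. Of 59 named calls 39 held without any 1 library. Of the 88 genes taken by the rule for named genes, *Xbp1* changed sign, to 0.22 in the J-A series. *P2ry12* and *Cx3cr1*, given outside that rule, did so too, to 0.18 and 0.13. Over those 88 genes and all alternatives 158 calls were lost and 14 gained, 39 of the losses in the J-A series alone and 28 with all 20 libraries. Depth limits genes of a few CPM such as *Cenpe*, *Fmo1* and *Cd5l*.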
